A study of Bienertia sinuspersici with 9 samples.

Results

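Of 11709 unigenes (assembled transcripts) with a scaled expression value in leaves of *Bienertia sinuspersici*, 21 kept a near-constant stage mean between young and intermediate leaves and stood at least 3-fold higher in mature leaves. These 21 unigenes were chosen by 4 conditions on stage means and libraries. The ratio of intermediate to young leaves (I/Y) had to lie between 0.8 and 1.25. The ratio of mature to intermediate leaves (M/I) had to be at least 3, the mature mean at least 20, and each of the 3 mature libraries had to exceed all 6 young and intermediate libraries. BS7377_c0_g1_i5, annotated as D27, was excluded in advance and would not have been chosen in any case, since its I/Y was 2.39 and its mature mean 18.0. The values that chose the 21 unigenes are given here as a description, without a test.

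RNA-seq libraries were made from leaves of wild-type plants at 3 stages of leaf development, young, intermediate and mature, with 3 biological replicates each. From mature leaves the authors took the tip part alone, and no such restriction is stated for young and intermediate leaves, so leaf stage and leaf part cannot be told apart in any comparison with mature leaves. Which plants or leaves stand behind a replicate number is not stated in the sources used here. Standard errors and p-values therefore measure the spread between these libraries only. Because whole leaf tissue was sequenced, fewer cells of a type and less RNA per cell cannot be told apart.

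*Bienertia sinuspersici* is a plant of saline soils that performs C4 photosynthesis inside single cells. In most C4 plants the first fixation of CO2 and its release to Rubisco are divided between mesophyll and bundle sheath cells. In *Bienertia sinuspersici* the same division is made between a peripheral and a central compartment of each chlorenchyma cell. Its young leaves start out with ordinary chloroplasts and build the compartments as they mature. C4 cycle enzymes are known to accumulate over the same period.

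None of the 21 unigenes carried a gene name among the 196 annotated unigenes that could be consulted, so each is referred to by its assembly identifier. In these Trinity identifiers the BS and c numbers mark a cluster of overlapping contigs, the g number a putative gene and the i number an isoform of it. No 2 of the 21 shared a BS number, and 7 were numbered as the first isoform. Identity and function of the encoded proteins were not analysed here.

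Expression is given as TPMTMM, which for these unigenes was TPM (read abundance corrected for transcript length and library size) rounded to a whole number, increased by 1 and multiplied by 1 factor per library. The factor averaged 0.858 for young, 0.932 for intermediate and 1.26 for mature libraries, a ratio of 1.35 between mature and intermediate. The number of reads behind a value is unknown. Replicate 3 of young leaves, replicate 3 of intermediate leaves and the first mature library differed from the other libraries of their stage in many unigenes, as described below. The summed TPMTMM of 4 genes of dividing cells ranged from 69.0 to 84.9 among young, from 51.5 to 55.9 among intermediate and from 30.8 to 34.5 among mature libraries. For 6 genes of photosynthetic tissue these sums were 1320 to 1786, 2178 to 2635 and 3425 to 4989, and for 4 genes of epidermis and cuticle they were 380 to 469, 448 to 476 and 262 to 295. In a limma fit across all unigenes, on log2(TPMTMM + 1) with Benjamini-Hochberg adjustment at 0.05, 4 of the 6 photosynthetic genes rose at the step to mature leaves, where 16.1% of all unigenes did, and 3 of the 4 epidermal and 3 of the 4 dividing-cell genes fell, where 15.9% did. The dividing-cell gene CSLD5, a cellulose synthase-like protein, was at a rounded TPM of 0 in all 3 mature libraries. These genes were chosen with earlier results of these data known, so their counts carry no evidence of their own. The part of these gene groups in the values below was not tested.

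A rise confined to the second step was the less frequent form of a strong rise in mature leaves. Among 5175 unigenes with a mature mean of at least 20, M/I was at least 3 in 171. Of these 171, I/Y lay above 1.25 in 135 unigenes, below 0.8 in 5 and between both bounds in 31. The last condition, that no library of another stage reached the mature ones, removed 10 of the 31 and left the 21. Conversely, 3520 unigenes with a mature mean of at least 20 had an I/Y inside the bounds, and their median M/I was 1.01.

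**Figure D1:**
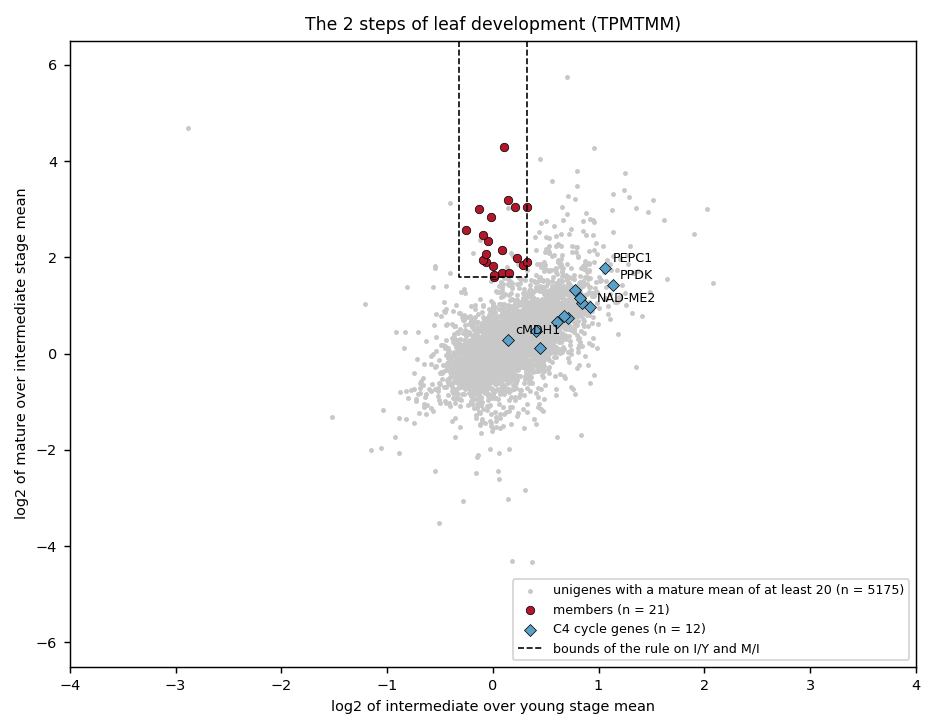
Log2 ratio of mature over intermediate stage means (vertical axis) against log2 ratio of intermediate over young stage means (horizontal axis), from TPMTMM. Grey points are 5175 unigenes with a mature mean of at least 20 and red points the 21 chosen unigenes. Blue diamonds are 12 genes that the study examined by qRT-PCR, compared here as C4 cycle genes. The dashed lines mark the bounds on both ratios, and 11 of the 12 C4 genes lie to the right of the bounds.

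The 21 unigenes covered a wide range of levels. Young means were 2.01 to 325 TPMTMM with a median of 11.7, intermediate means 2.17 to 359 with a median of 12.1, and mature means 20.1 to 3258 with a median of 42.6. Of the 21, 10 were under 10 TPMTMM in young leaves, and 7 reached 100 TPMTMM in mature leaves. M/I was 3.01 to 19.6 with a median of 4.21, and I/Y was 0.840 to 1.25 with a median of 1.01. Over all 11709 unigenes the median log2 difference between mature and intermediate leaves was -0.00, against 1.99 for the 21. In the limma fit 19 of the 21 passed as higher in mature than in intermediate leaves, where 16.1% of all unigenes did, and 0 as lower (15.9% of all unigenes). Likewise 19 passed as higher in mature than in young leaves (24.2% of all unigenes), and 0 differed between intermediate and young leaves, none at an unadjusted p under 0.05 either (5.75% of all unigenes passed after adjustment). The choice of the 21 used these same contrasts, so the counts carry no evidence of their own. BS16874_c0_g1_i1 and BS9249_c0_g1_i5 were the 2 that did not pass between mature and intermediate leaves.

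**Figure D2:**
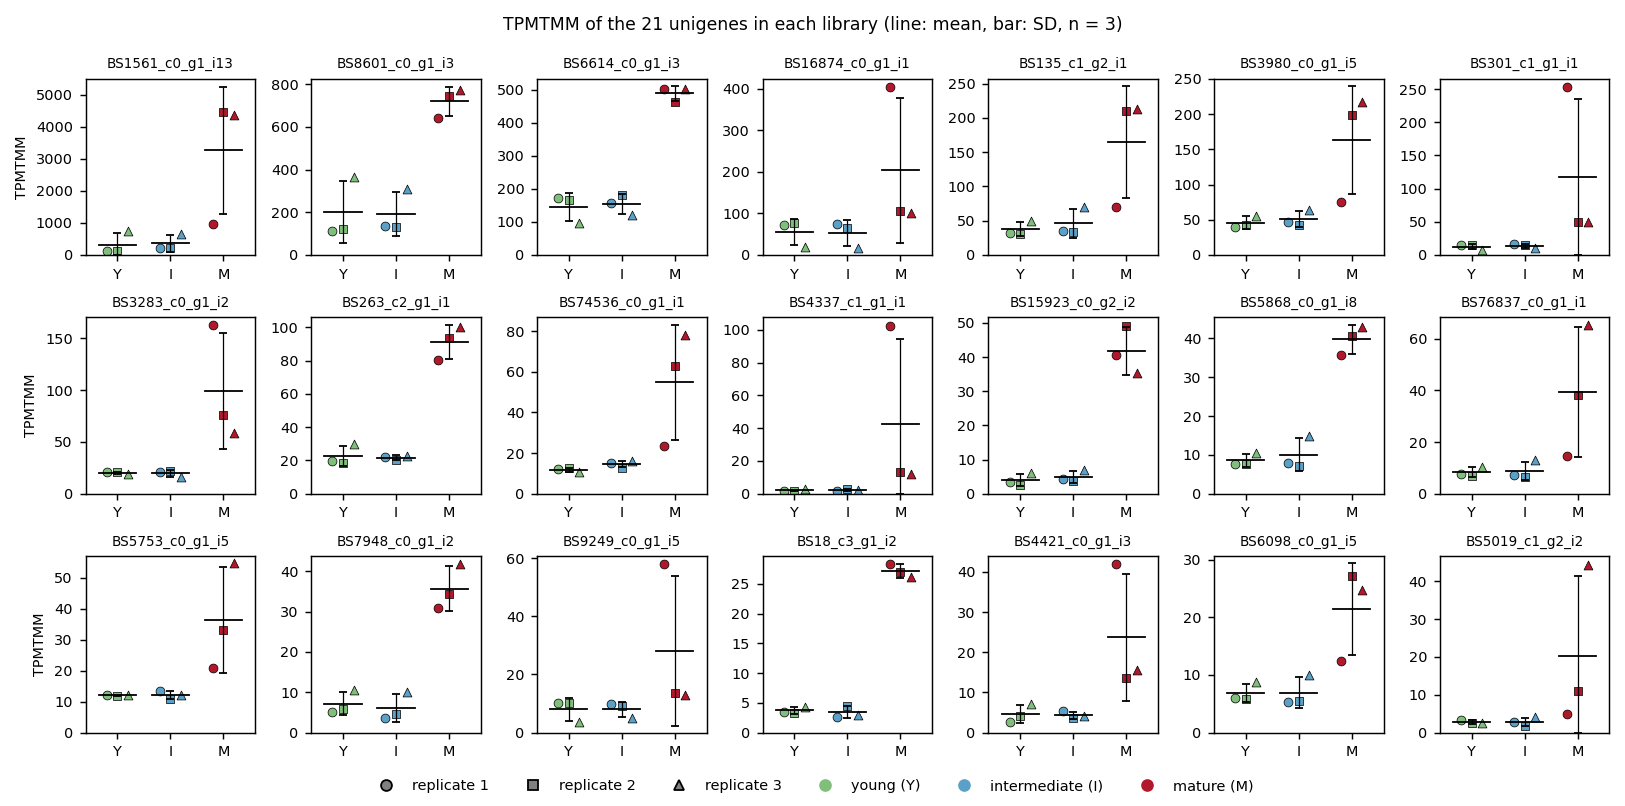
TPMTMM (vertical axes, each starting at 0) of the 21 unigenes in the 9 libraries, by stage (Y, young; I, intermediate; M, mature) and replicate number (symbol), with mean (line) and SD (bar, n = 3, cut at 0). Young and intermediate libraries lie below the mature ones in every panel and differ among themselves by more than 2-fold in 12, and the mature libraries lie together in 7 panels and apart by more than 2-fold, with the first mature library above or below the others, in 14.

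The mature libraries did not carry the rise evenly, and the 21 unigenes are described below by this difference. The first mature library was within 2-fold of the mean of the other mature libraries (on the log2 scale) in 7 unigenes, more than 2-fold above it in 6 and more than 2-fold below it in 8. This grouping was made after the values had been seen and is a description.

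Among the 7 unigenes that stood evenly high in the mature libraries, BS8601_c0_g1_i3 had the highest mature mean. It had 114, 122 and 368 TPMTMM in young libraries, 136, 129 and 311 in intermediate libraries and 644, 747 and 773 in mature libraries. Replicate 3 was the highest of its stage in both young and intermediate leaves, and the lowest mature library was still 1.75 times the highest of the 6 others. The log2 difference between mature and intermediate leaves was 2.02 (SE 0.47), and 2.43 without the third intermediate library. The unigene would not have been chosen if any 1 of the young libraries or the third intermediate library had been left out.

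BS6614_c0_g1_i3 was the most even of the strongly expressed members. It had 172, 166 and 96.3 TPMTMM in young libraries, 158, 182 and 121 in intermediate libraries and 502, 463 and 502 in mature libraries. Here replicate 3 was the lowest of its stage in both young and intermediate leaves, and the lowest mature library stood 2.54 times above the highest other library. The mature libraries differed by a factor of 1.09, and the log2 difference between mature and intermediate leaves was 1.68 (SE 0.23), and 1.52 without the third intermediate library.

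The clearest separation was found in BS18_c3_g1_i2. It had 3.43, 3.36 and 4.38 TPMTMM in young libraries, 2.67, 4.55 and 3.00 in intermediate libraries and 28.4, 27.1 and 26.1 in mature libraries. Its lowest mature library was 5.74 times the highest other library, the largest such gap among the 21, and its log2 difference between mature and intermediate leaves, 2.70, had the smallest SE of them (0.17). BS15923_c0_g2_i2 followed with a gap of 5.04. It had 3.43, 2.52 and 6.13 TPMTMM in young libraries, 4.44, 3.64 and 6.99 in intermediate libraries and 40.7, 49.2 and 35.2 in mature libraries, and its M/I was 8.31. Both were close to the floor of the scale before maturity, where 1 TPM corresponds to roughly 1 unit and the added 1 is a large part of the value.

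The other 3 even unigenes with a gap of over 2 were BS263_c2_g1_i1, BS7948_c0_g1_i2 and BS5868_c0_g1_i8. BS263_c2_g1_i1 had 80.2, 93.5 and 100 TPMTMM in mature libraries, and 18.5 to 29.8 in the 6 others. BS7948_c0_g1_i2 had 30.8, 34.5 and 41.8 TPMTMM in mature libraries, and 3.55 to 10.5 in the others, with the lowest I/Y of the 21 (0.840). BS5868_c0_g1_i8 had 35.8, 40.6 and 43.1 TPMTMM in mature libraries, and 7.27 to 15.0 in the others. In each of the 3, no young or intermediate library came near the mature ones.

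In 6 unigenes the first mature library exceeded the others by far. BS4337_c1_g1_i1 had the largest M/I of the 21, 19.6, and the mean behind it rested on that library. It had 1.71, 1.68 and 2.63 TPMTMM in young libraries, 1.78, 2.73 and 2.00 in intermediate libraries and 102, 13.5 and 11.7 in mature libraries. The other mature libraries were still more than 4 times the highest other library, so that the rise was present in every mature library although its size was not. Its log2 difference between mature and intermediate leaves was 3.09 (SE 0.68), and 2.12 without the first mature library.

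BS301_c1_g1_i1 showed the same form at a higher level. It had 14.6, 14.3 and 7.88 TPMTMM in young libraries, 16.9, 14.5 and 11.0 in intermediate libraries and 253, 49.2 and 49.6 in mature libraries. The first mature library was about 5 times the other mature ones, which were alike, and the log2 difference of 2.53 (SE 0.57) became 1.75 without it. This unigene shares its BS number, but not its c number, with BS301_c2_g1_i2, the unigene of CAb1, which encodes a carbonic anhydrase. CAb1 had an I/Y of 1.64 and an M/I of 1.66 and thus rose over both steps.

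In BS16874_c0_g1_i1 the libraries disagreed at all stages. It had 72.0, 76.5 and 20.1 TPMTMM in young libraries, 75.5, 65.5 and 17.0 in intermediate libraries and 405, 106 and 100 in mature libraries. Replicate 3 was several-fold below the other young and intermediate libraries, and the lower mature libraries were only 1.31 times the highest of the 6 others. The log2 difference between mature and intermediate leaves was 1.86 (SE 0.76) and did not pass the test, and it was 1.20 without the third intermediate library and 1.21 without the first mature library. BS9249_c0_g1_i5 was alike at a lower level and did not pass either. It had 10.3, 10.1 and 3.50 TPMTMM in young libraries, 9.77, 9.09 and 4.99 in intermediate libraries and 58.0, 13.5 and 13.1 in mature libraries. Without the first mature library its log2 difference of 1.40 (SE 0.59) fell to 0.72.

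The remaining unigenes of this form were BS3283_c0_g1_i2 and BS4421_c0_g1_i3. BS3283_c0_g1_i2 had 163, 76.3 and 58.7 TPMTMM in mature libraries, and 15.98 to 21.8 in the 6 others, which differed by a factor of 1.37. BS4421_c0_g1_i3 had 41.9, 13.5 and 15.7 TPMTMM in mature libraries, and 2.57 to 7.003 in the others. In BS3283_c0_g1_i2 even the lowest mature library was 2.69 times the highest of the others. Without the first mature library the log2 difference between mature and intermediate leaves was 1.73 in BS3283_c0_g1_i2, against 2.15 with it, and 1.56 in BS4421_c0_g1_i3, against 2.05 with it.

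In 8 unigenes the first mature library was the low one. The most abundant of all 21, BS1561_c0_g1_i13, belonged here. It had 114, 114 and 748 TPMTMM in young libraries, 216, 209 and 652 in intermediate libraries and 976, 4443 and 4355 in mature libraries. Replicate 3 of the young and intermediate leaves was 3 to 7 times the other libraries of its stage, and the first mature library was nearer to these than to the other mature ones. Its M/I was 9.07 and its log2 difference between mature and intermediate leaves 3.10, with the largest SE of the 21 (0.87). The log2 difference was 2.73 without the second mature library, 3.64 without the third intermediate library and 3.83 without the first mature library.

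BS135_c1_g2_i1 passed the condition on libraries by the narrowest margin. It had 32.6, 31.1 and 49.9 TPMTMM in young libraries, 34.6, 33.6 and 69.9 in intermediate libraries and 70.3, 210 and 213 in mature libraries. The first mature library exceeded the third intermediate library by a factor of 1.01 only, whereas the other mature libraries were about 3 times as high. Its log2 difference between mature and intermediate leaves was 1.73 (SE 0.45), 2.07 without the third intermediate library and 2.26 without the first mature library. BS3980_c0_g1_i5 was close to it in level and form. It had 39.4, 42.1 and 56.0 TPMTMM in young libraries, 46.2, 42.7 and 63.9 in intermediate libraries and 75.3, 198 and 217 in mature libraries. Its lowest mature library was 1.18 times the highest of the others, and its log2 difference of 1.54 (SE 0.37) was 2.02 without the first mature library.

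BS5019_c1_g2_i2, which had the lowest mature mean (20.1 TPMTMM), was the least even of the 21. It had 3.43, 2.52 and 2.63 TPMTMM in young libraries, 2.67, 1.82 and 3.996 in intermediate libraries and 4.93, 11.1 and 44.4 in mature libraries. The mature libraries differed by a factor of 8.99, and the first of them was about 1 unit above the third intermediate library. The log2 difference between mature and intermediate leaves was 1.99 (SE 0.62), 1.19 without the third mature library and 2.65 without the first. BS5753_c0_g1_i5 had the lowest M/I, 3.01, together with the steadiest values before maturity. It had 11.997, 11.8 and 12.3 TPMTMM in young libraries, 13.3, 10.9 and 11.99 in intermediate libraries and 20.97, 33.2 and 54.8 in mature libraries.

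The other 3 unigenes with a low first mature library were BS74536_c0_g1_i1, BS76837_c0_g1_i1 and BS6098_c0_g1_i5. BS74536_c0_g1_i1 had 23.4, 62.8 and 78.3 TPMTMM in mature libraries, and 10.5 to 15.98 in the 6 others. BS76837_c0_g1_i1 had 14.8, 38.2 and 65.3 TPMTMM in mature libraries, and 6.37 to 12.99 in the others. BS6098_c0_g1_i5 had 12.3, 27.1 and 24.8 TPMTMM in mature libraries, and 5.33 to 9.99 in the others. The first mature library of each lay within 1.5 times the highest young or intermediate library. Without it their log2 differences between mature and intermediate leaves were 2.19, 2.44 and 1.81, against 1.68, 1.87 and 1.48 with it.

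The uneven mature libraries were frequent among strong rises in general. The first mature library lay more than 2-fold off the mean of the other mature libraries in 66.7% of the 21, in 53.8% of the 171 unigenes with an M/I of at least 3 and a mature mean of at least 20 (54 below and 38 above), and in 10.3% of the 5175 with that mature mean. Which mature library was highest also varied, being the first in 7, the second in 3 and the third in 11 of the 21. Among the 5175 unigenes the first was the highest in 44.7%.

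The difference between mature libraries went together with a difference between the libraries of the earlier stages. For each unigene the log2 value of the first mature library relative to the other mature libraries was set beside that of replicate 3 relative to replicates 1 and 2, averaged over young and intermediate leaves. The signs were opposite in 17 of the 21 (81.0%), with a low first mature library and a high replicate 3 in 12 and the reverse in 5. Pearson's r over the 21 was -0.60 and Spearman's rho -0.58, and r was -0.64 without the 2 unigenes farthest from the median on the first measure. This relation was not restricted to them. Over the 5175 unigenes r was -0.73 with opposite signs in 71.0%, and over the 171 it was -0.71 with opposite signs in 81.9%. All points share the same 9 libraries and their scaling, so these correlations describe the libraries and carry no p-value. In deviations from stage means, the first mature library correlated positively with replicates 1 and 2 of the earlier stages (0.474 to 0.588). The other mature libraries correlated positively with replicate 3 of the earlier stages (0.413 to 0.589). Deviations from a stage mean cancel out within the stage, so both sets of correlations restate the same relation. In this respect replicates 1 and 2 of the earlier stages resembled the first mature library, and replicate 3 the other mature libraries. No label names a batch or a kind of library. Stage means and M/I include this uneven split, and its part was not tested.

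**Figure D3:**
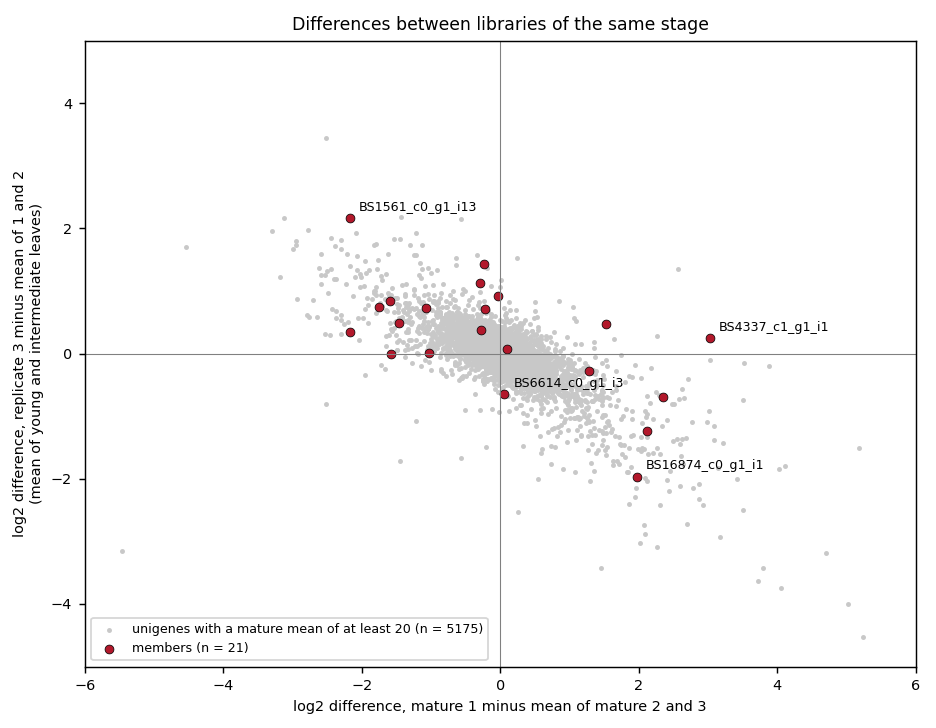
Log2 difference of replicate 3 from replicates 1 and 2, averaged over young and intermediate leaves (vertical axis), against log2 difference of the first mature library from the other mature libraries (horizontal axis). Grey points are 5175 unigenes with a mature mean of at least 20 and red points the 21 chosen unigenes, of which 12 lie in the upper left and 5 in the lower right.

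The near-constant level between young and intermediate leaves was likewise a property of the means more than of each replicate. When libraries with the same number were compared, I/Y lay inside the bounds in 14 unigenes for number 1, in 15 for number 2 and in 10 for number 3, and in all 3 numbers for 7 of the 21. For BS1561_c0_g1_i13 it was 1.89 and 1.83 in numbers 1 and 2, and 0.873 in number 3, which had high values at both stages and dominated both means. For BS4421_c0_g1_i3 it was 2.07, 0.865 and 0.571. M/I by number was at least 3 in 14, 18 and 17 unigenes for numbers 1, 2 and 3, and in all 3 numbers for 9. Numbers were not shown to pair plants or leaves, so these ratios combine libraries that share only a number.

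At the upper bound of I/Y, BS15923_c0_g2_i2 (1.248) was chosen and BS6407_c0_g1_i1 (1.255), with an M/I of 3.33, was not. At the bound of M/I, BS5753_c0_g1_i5 (3.01) was chosen and BS2368_c0_g1_i1 (2.98), with a mature mean of 184 TPMTMM, was not. At the bound of the mature mean, BS5019_c1_g2_i2 (20.1) was chosen and BS6789_c0_g1_i4 (18.4) was not. The 10 unigenes left out because libraries overlapped were also of both forms, and in 6 of them the first mature library was the one that failed to exceed the others. One of them, BS7824_c2_g1_i11, picked here after its values had been seen, was more abundant in mature leaves than any chosen unigene. It had 494, 501 and 1928 TPMTMM in young libraries, 682, 671 and 1785 in intermediate libraries and 1245, 6365 and 5858 in mature libraries.

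The choice of unigenes depended on single libraries. Of the 21, 3 were chosen whichever of the 9 libraries was left out, namely BS3283_c0_g1_i2, BS263_c2_g1_i1 and BS76837_c0_g1_i1. Leaving out the third intermediate library gave 69 unigenes, with 11 of the 21 among them, and leaving out the first mature library gave 38, with 17 of the 21. Without both replicate 3 libraries of young and intermediate leaves, 50 unigenes were chosen, again with 11 of the 21. With stage medians in place of means there were 30, of which 11 were among the 21.

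**Figure D4:**
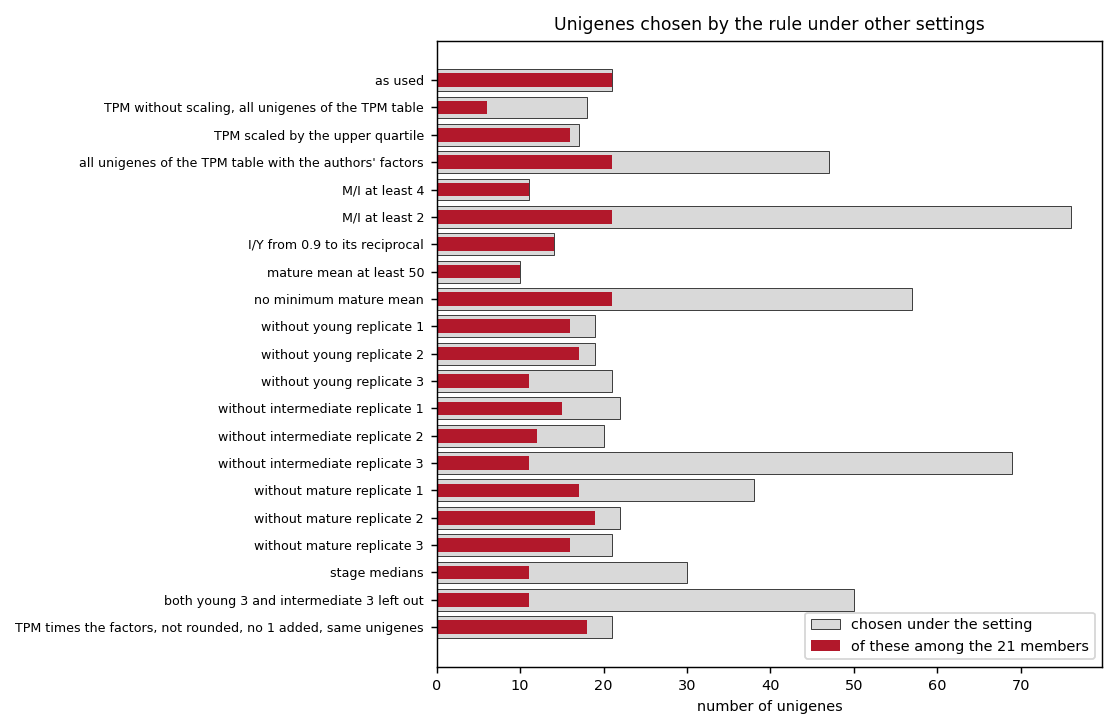
Number of unigenes that fulfilled the conditions under each setting (grey bars, horizontal axis) and how many of them were among the 21 (red bars), with 1 setting per line. The grey bars run from 10 unigenes with a mature mean of at least 50 to 76 with an M/I of at least 2, and the red bars fall to 6 on TPM without scaling.

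As a check in libraries that the choice did not use, unigenes were chosen from 2 replicate numbers and read in the third. Without number 1, 29 unigenes were chosen, and in the libraries left out 28 of them had an M/I above 1, 10 an M/I of at least 3 and 6 fulfilled both bounds on the ratios (20.7%, against 0.863% of all unigenes). Without number 2, 18 were chosen, of which 18, 12 and 6 did so (33.3%, against 1.19%). Without number 3, 43 were chosen, of which 42, 18 and 5 did so (11.6%, against 0.675%). An M/I above 1 was found in 5918, 5732 and 5860 of all 11709 unigenes in the libraries of numbers 1, 2 and 3. In numbers 1, 2 and 3, I/Y lay inside the bounds in 55.2, 66.7 and 25.6% of the chosen unigenes. Over all unigenes it did so in 67.4, 70.8 and 56.5%. The sets chosen here were not the 21 themselves. Of the 29, 18 and 43 chosen, 16, 14 and 12 were among the 21. An M/I above 1 was found again in nearly every chosen unigene. An M/I of at least 3 was found in 10, 12 and 18 of them, and both ratios in 6, 6 and 5. A near-constant first step was no more frequent among the chosen unigenes than among all.

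Scaling contributed to the values. On TPM as deposited the median log2 difference between mature and intermediate leaves over all unigenes was -0.43, and M/I of the 21 was 2.31 to 25.8 with a median of 3.23. It was at least 3 in 12 of them. All mature libraries exceeded all others in 14 of the 21 on TPM, where 7.13% of all unigenes showed this separation, compared with 19.6% on TPMTMM. All 7 unigenes with even mature libraries kept it. It was lost in BS16874_c0_g1_i1 and BS9249_c0_g1_i5, whose first mature library was high, and in BS1561_c0_g1_i13, BS135_c1_g2_i1, BS3980_c0_g1_i5, BS76837_c0_g1_i1 and BS6098_c0_g1_i5, where it was low. Rounding and the added 1 worked in the other direction in weakly expressed unigenes, and M/I of BS4337_c1_g1_i1 was 34.3 with neither.

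**Figure D5:**
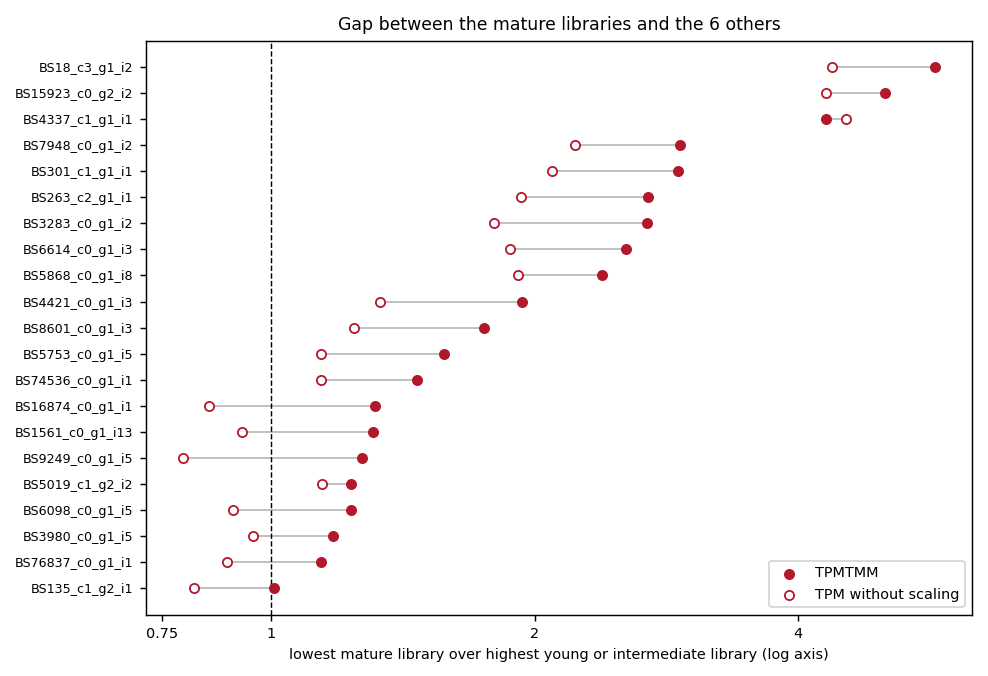
Lowest mature library divided by the highest young or intermediate library (horizontal axis, log scale) for each of the 21 unigenes (1 per line), from TPMTMM (filled) and from TPM without scaling (open). Values right of the dashed line at 1 mean that no library of another stage reached the mature ones, which holds for 21 unigenes on TPMTMM and for 14 on TPM.

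Together the 21 unigenes held a small part of the mature transcriptome. They made up 0.0765, 0.0791 and 0.167% of all TPM in young libraries, 0.0884, 0.0848 and 0.137% in intermediate libraries and 0.288, 0.546 and 0.521% in mature libraries. Most of the difference among mature libraries came from BS1561_c0_g1_i13. Without it the share was 0.0634, 0.0656 and 0.0821% in young, 0.0643, 0.0619 and 0.0716% in intermediate and 0.209, 0.185 and 0.187% in mature libraries. The summed shares of each stage thus lay close together. This holds for the sum only, as single unigenes differed between libraries in opposite directions. In mature libraries BS16874_c0_g1_i1 had 327, 84.9 and 76.4 TPM, and BS135_c1_g2_i1 had 56.5, 170 and 162 TPM.

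Isoforms of the same putative gene were a measure that the choice had not used, although RSEM divides reads shared between isoforms and their values are thus not separate from those of the 21. Another isoform was found for 5 of the 21 (23.8%, compared with 42.9% of all 11709 unigenes), 1 each, and only 1 of these was among the 11709. This was BS5868_c0_g1_i1, with a log2 difference between mature and intermediate leaves of 0.59 (SE 0.19, adjusted p = 0.0402, limma). The call was lost when young replicate 1, any intermediate replicate or mature replicate 1 or 2 was left out, with a pseudocount of 0.1, on TPM without scaling and with a replicate block. In a limma fit of all 36907 unigenes of the TPM table, 4 of the 5 isoforms passed as higher in mature leaves, where 8.08% of all unigenes did.

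These 4 isoforms were weakly expressed. BS18_c3_g1_i3 had a TPM of 9.69, 8.37 and 5.25 in mature libraries, against 2.52, 0.96 and 1.24 in intermediate libraries, a log2 difference of 1.78 (SE 0.27, adjusted p = 0.0031, limma). Its TPM was 0.58 in the first young library and 0 in the other young libraries, so that its values were higher at each step. BS9249_c0_g1_i3 had 4.81, 5.08 and 5.38 TPM in mature libraries, against 1.04, 1.87 and 1.55 in intermediate libraries. Its mature libraries were even, unlike those of BS9249_c0_g1_i5, whose first mature library was about 4 times the others. BS3980_c0_g1_i6, with 2.07, 5.06 and 10.4 TPM in mature libraries, against 0.94, 0.5 and 1.66 in intermediate libraries, had a low first mature library as did BS3980_c0_g1_i5. BS5753_c0_g1_i1 had 0.82, 3.29 and 1.74 TPM in mature libraries, against 0, 0.14 and 0.36 in intermediate libraries. The intermediate values all round to 0, so its difference starts from the floor. The log2 differences of BS9249_c0_g1_i3, BS3980_c0_g1_i6 and BS5753_c0_g1_i1 were 1.30 (SE 0.19), 1.42 (SE 0.38) and 1.27 (SE 0.23). Of 40 unigenes that shared the BS number but not the gene number of one of the 21, 6 passed as higher and 2 as lower in mature leaves in the same fit, where 8.08% of all unigenes passed as higher and 6.73% as lower.

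The conditions could also be applied to unigenes outside the scaled table, by giving their TPM the same rounding and factors. Of the 25198 further unigenes of the TPM table, 26 fulfilled them. They belonged to 23 putative genes, none of them a gene of the 21. Their mature means were 20.2 to 4302 with a median of 37.8, their M/I was 3.02 to 59.5 with a median of 5.02, and the mature libraries of a unigene differed by factors of 1.15 to 7.73 with a median of 1.83.

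A comparison was made with 12 genes that the study examined by qRT-PCR, called C4 genes here. They do not cover the whole C4 cycle. ALA-AT2 and several transporters that the paper names for the cycle are missing, and the paper places TPT in the triose-phosphate shuttle. None of the 12 fulfilled the conditions. PEPC1, the phosphoenolpyruvate carboxylase that fixes bicarbonate in the first step of the cycle, alone of the 12 reached an M/I of 3 (3.44). Its I/Y was 2.09. It had 1303, 1269 and 1476 TPMTMM in young libraries, 2230, 2274 and 3960 in intermediate libraries and 9098, 9965 and 10033 in mature libraries. PPDK, which regenerates phosphoenolpyruvate, had an I/Y of 2.20 and an M/I of 2.70.

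NAD-ME2, a subunit of the NAD-malic enzyme that releases CO2 in mitochondria, had an I/Y of 1.89 and an M/I of 1.96. CAb2, a carbonic anhydrase, and ASP-AT1 and ASP-AT2, aspartate aminotransferases, had I/Y values of 1.71, 1.79 and 1.77 and M/I values of 2.49, 2.09 and 2.23. The transporter genes TPT, UCP1 and DTC had I/Y values of 1.59, 1.52 and 1.36 and M/I values of 1.72, 1.57 and 1.09. The malate dehydrogenase genes had an I/Y of 1.33 and an M/I of 1.38 for mMDH2 and of 1.10 and 1.22 for cMDH1. Only cMDH1 had an I/Y inside the bounds of the 21. In the limma fit 10 of the 12 passed as higher in mature than in intermediate leaves (16.1% of all unigenes) and 7 of the 12 as higher in intermediate than in young leaves (5.75% of all unigenes in either direction). Their median log2 differences were 0.89 and 0.73, compared with -0.00 for both steps over all unigenes. The study picked the 12 to check differentially expressed genes of the same RNA-seq data. The counts and medians therefore carry no evidence of their own.

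The log2 difference of the first mature library from the others was between -0.17 and 0.44 in the 12 C4 genes, and between -2.17 and 3.02 in the 21. In PEPC1 the highest mature library was the third and the lowest the first, as in BS8601_c0_g1_i3. Replicate 3 of the intermediate leaves was the highest of its stage in 10 of the 12 C4 genes.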

How the data were processed

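RNA of young, intermediate and mature leaves was sequenced by the authors in 9 libraries, 3 per stage. They trimmed reads with Trimmomatic, assembled all libraries with Trinity, quantified transcripts with RSEM and removed redundant ones. Tool versions were not given in the sources used. The deposited tables hold TPM of 36907 unigenes and TPMTMM, TPM scaled by the authors with the trimmed mean of M values, of 11709 unigenes. From the values, 11708 of the 11709 are whole multiples of 1 factor per library (within 0.001). Neither table holds read counts, so sequencing depth and counting errors could not be derived.

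Stage means, ratios and the choice of unigenes used Python 3.11.15 with pandas 2.3.3 and numpy 2.4.6, and figures used matplotlib 3.10.9. The test across unigenes was limma-trend (limma 3.58.1, R 4.3.3) on log2(TPMTMM + 1), with stage as the only term. It used 9 libraries, Benjamini-Hochberg adjustment over all unigenes and a threshold of 0.05. It was also run on simulated data with independent noise in each unigene and library. Such data lack the library differences that many unigenes share here, so they cannot vouch for the test under them. A fold change on the log2(TPMTMM + 1) scale understates that of low unigenes. A count model as used in the study needs counts and was not run. The unigenes, gene lists, conditions and alternatives were chosen with earlier results of these data known. Unigenes described in full were the 5 with the highest mature mean, the 5 with the largest M/I, the 3 most and 3 least even in mature libraries, those nearest a threshold on either side, and those with another isoform that passed. The others were named for completeness. Alternatives were other pseudocounts, scalings, filters and thresholds, a replicate block and leaving out libraries. Names came from a shortened annotation table whose fold changes were not used. Transcript sequences were not analysed here.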

Additional observations from a re-analysis of the deposited data

How the results depend on the processing

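The number of chosen unigenes was 47 when all unigenes of the TPM table were scaled with the same factors, 11 and 76 with an M/I of at least 4 and at least 2, 10 with a mature mean of at least 50, 57 with no minimum, and 19 to 69 when 1 library was left out. Chosen after seeing the data, leaving out both replicate 3 libraries of young and intermediate leaves gave 50, and stage medians gave 30. Unigenes higher in mature than in intermediate leaves numbered 1886, and 772 on unscaled TPM, 2981 with all unigenes and 1237 to 2041 with 1 library left out, the lowest without intermediate replicate 2. Those differing between intermediate and young leaves numbered 673, 215 with all unigenes and 62 to 1134 with 1 library left out, moving by over 1.5 times with every library but mature replicate 3 (62 without young replicate 2, 1134 without mature replicate 1). Those higher in mature than in young leaves numbered 2829, 1297 on TPM, 5244 with all unigenes and 2369 to 2968 with 1 library left out. Isoforms passing numbered 1, and 0 with a pseudocount of 0.1, 0 on TPM, 4 with all unigenes and 0 to 1 with 1 library left out. A filter on low values left no isoform to test.

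Replicate numbers were not shown to pair libraries, since deviations from stage means correlated positively between young and intermediate leaves (0.445 to 0.696) and negatively in the second mature library (-0.427 and -0.476). A replicate block gave 2117 unigenes higher in mature than in intermediate leaves, 496 differing between intermediate and young leaves, 3062 higher in mature than in young leaves and 0 isoforms.

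Of 315 log2 differences of the 21 unigenes between mature and intermediate leaves under these settings, 311 moved by less than 1 SD of the replicates, 4 moved by more and 0 changed sign. The causes were not tested. This difference cannot change with the filter on low values, with all unigenes, with a replicate block or when a young library is left out. The values under those settings were fixed in advance and say nothing on stability. Leaving out 1 of the few libraries of a stage cannot move the difference by more than 1 SD pooled over the stages. The count of 0 such moves for left-out libraries therefore says nothing on stability either. The 4 larger moves came from a pseudocount of 0.1 (1), TPM without scaling (2) and TPM scaled by the upper quartile (1). Only these settings could give a move of more than 1 SD. The unknown depth limits statements on unigenes near 1 TPM.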
